A study of Mus musculus with 5 samples.

Results

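The genes described here encode the proteins of the cytosolic ribosome, read in mouse fibroblasts with and without a transfected ERBB2 receptor. They were chosen by name, with earlier results of these data known. A gene entered where an array probe carried 1 gene symbol and that symbol had the Rpl or Rps form of a cytosolic ribosomal protein. This gave 46 genes from 55 probes, of 9669 genes named by single-symbol probes, with 29 genes of the large subunit and 17 of the small subunit. Both preparations gave a value in each dye orientation for 29 of the 46, of which 18 belong to the large and 11 to the small subunit, and these were tested. The other 17 are given as values only.

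NIH3T3 is an immortalised mouse fibroblast line, here the parental cells from a public collection. The other line was NIH3T3 carrying human HER-2/NEU (ERBB2, a receptor tyrosine kinase) under a cytomegalovirus promoter, which drives it constitutively. Both lines grew in the same serum-supplemented medium, and the labels do not say whether the transfected cells were 1 clone. RNA of both was hybridised together to 5 arrays of spotted cDNA in different dyes. Preparation A has 3 arrays, called A1, A2 and A3, and preparation B has 2, B1 and B2. Erbb2-transfected cDNA carried Cy3 on A1, A2 and B1, and Cy5 on A3 and B2. Each value is the log2 of the Erbb2-transfected signal over that of NIH3T3, so 0 is no difference and 1 is a 2-fold higher level. The direction is likely rather than settled: it takes Cy5 as the numerator, which is the first channel in the labels, and the opposite reading would turn every sign given here.

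The labels do not say whether the preparations were separate cultures, so p-values measure only the spread between these samples, which may be technical. Arrays held values for between 5368 probes (A1) and 17463 probes (B1), and for 33 to 43 of the 46 genes. The number of arrays limits the precision. No single-symbol probe named Erbb2, so the transgene could not be checked. The arrays give ratios, not levels, so they cannot show that a cell type marker is absent. Of 10 fibroblast markers 9 had values and 6 were tested; Col1a1, Col1a2 and Fn1 fell in the transfected line (-4.93, -3.97 and -4.61), while Col3a1 at 0.51, Vim at 0.47 and S100a4 at -0.01 did not pass (limma adjusted p = 0.331, 0.218 and 0.978). Of 15 markers of other cell types 8 had values and 3 were tested, and these stood between 0.16 and 0.21 with 0 called. In RNA of whole cultures, fewer cells holding a transcript and less of it per cell cannot be told apart.

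The ribosome joins a small subunit, which reads the messenger RNA, to a large subunit, which forms the peptide bonds and holds the tunnel through which the new chain leaves. Each protein is needed in about equal numbers, and the genes are known for being expressed together at high levels in growing cells. In mammals their messenger RNAs begin with a C followed by a run of pyrimidines, the 5′ terminal oligopyrimidine tract, through which growth factor and mTOR signals adjust their translation. Arrays of total RNA read the amount of messenger RNA and not its translation.

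The annotated start sites were searched for that tract. Of the 46 genes, 38 had a promoter in the RefSeq table of mouse build GRCm38.p6, with 45 start sites. A C at the start base followed by at least 4 further C or T bases was present at 7 of the 45 (15.6%), against 823 of all 32851 promoters in that table (2.51%). The search read the coding strand at the annotated start base only, so a start site annotated some bases away would give no match. The hexamer CGGAAG, the core sequence bound by ETS family factors, was present on either strand in the 300-base window of 30 of the 45 (66.7%) and of 5537 of all promoters (16.9%). These are matches of letters, not measured binding. The 7 starts with the tract are shown because they are the starts at which the search found it and because they include Rpl15, which had the largest difference between the lines among the 29 tested ribosomal protein genes. Each line gives 40 bases before the start and 20 from it, 5′ to 3′ on the coding strand, with the tract in capitals.
Rpl15: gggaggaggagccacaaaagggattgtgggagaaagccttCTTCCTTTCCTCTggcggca
Rpl14: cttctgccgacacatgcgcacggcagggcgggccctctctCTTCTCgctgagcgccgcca
Rpl28: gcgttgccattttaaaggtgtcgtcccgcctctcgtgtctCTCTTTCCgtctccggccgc
Rpl35: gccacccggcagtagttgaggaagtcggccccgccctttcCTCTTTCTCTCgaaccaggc
Rplp2: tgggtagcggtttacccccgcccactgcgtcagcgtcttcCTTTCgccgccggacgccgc
Rps21: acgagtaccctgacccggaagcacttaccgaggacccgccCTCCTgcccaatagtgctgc
Rps6: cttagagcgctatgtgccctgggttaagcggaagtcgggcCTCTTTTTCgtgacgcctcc
They lie at chr14:18270967-18271026 (Rpl15, minus strand), chr9:120571477-120571536 (Rpl14, plus), chr7:4792925-4792984 (Rpl28, plus), chr2:39005112-39005171 (Rpl35, minus), chr7:141447611-141447670 (Rplp2, plus), chr2:180257339-180257398 (Rps21, plus) and chr4:86857348-86857407 (Rps6, minus). The tract of Rpl15, 13 bases long, is the longest of the 7.

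Rpl15 was the 1 ribosomal protein gene that passed the test between the lines, and its transcript was lower in the Erbb2-transfected cells. Rpl15 is a core protein of the large subunit and one of the genes mutated in Diamond-Blackfan anaemia, a failure of red cell production. On the arrays of preparation A its log2 ratio was -0.80 (A1), -0.79 (A2) and -1.22 (A3), and on those of preparation B it was -0.71 (B1) and -1.48 (B2). It was below 0 on all 5 arrays, and lower on both arrays with Erbb2-transfected cDNA in Cy5 than on the others. The preparation means were -1.0 and -1.10, and the difference was -1.05 ± 0.06 (SD, n = 2), a 2.07-fold lower level with a 95% interval from -1.50 to -0.60 and a limma adjusted p of 0.0111. Without A3 the difference was -0.94 with a limma adjusted p of 0.0871, and without B2 it was -0.86 with 0.0632. With arrays scaled to equal spread the limma adjusted p was 0.0536, and it was 0.0622 when features needed only 1 value in each preparation.

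Most ribosomal protein genes did not pass the test between the lines. Of the large subunit 1 of 18 was called and of the small subunit 0 of 11, in all 3.45% of 29, beside 6.79% of the 4892 features tested (limma, Benjamini-Hochberg threshold 0.05). Among features 4.54% were lower and 2.25% higher. At an unadjusted p under 0.05 stood 5 of the 29 (17.2%), namely Rpl15, Rpl26, Rpl39, Rps23 and Rps4x, beside 22.9% of all features. The median difference was -0.13 in the large subunit (range -1.05 to 0.52) and 0.02 in the small subunit (range -0.46 to 0.62), beside -0.02 over all features. Of the large subunit genes 8 stood above 0 and 10 below, and of the small subunit genes 6 above and 5 below.

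For most of these genes the 95% interval from the 2 preparation means lay within a 2-fold difference. The 95% interval lay within 1 on the log2 scale either way for 25 of the 29, the exceptions being Rpl15, Rpl26, Rpl36a and Rps23. Standard errors ran from 0.20 to 0.28. With 1 residual and 10.2 prior degrees of freedom, they were set largely by a spread pooled over all features. Scatter between arrays of 1 preparation does not enter them directly, so the intervals do not bound it. Rpl39, counted among the 25, had an interval from 0.050 to 0.999 while its arrays ran from -1.95 to 1.37. The SD between preparations had a median of 0.19, beside 0.21 over all features. Both preparations gave the same sign for 20 of the 29 genes, and for 65.4% of all features. All arrays with a value gave 1 sign for 5 genes (17.2%), beside 24.3% of all features. Rpl15, Rpl26 and Rps4x were below 0 throughout, and Rps23 and Rpsa above.

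**Figure D1:**
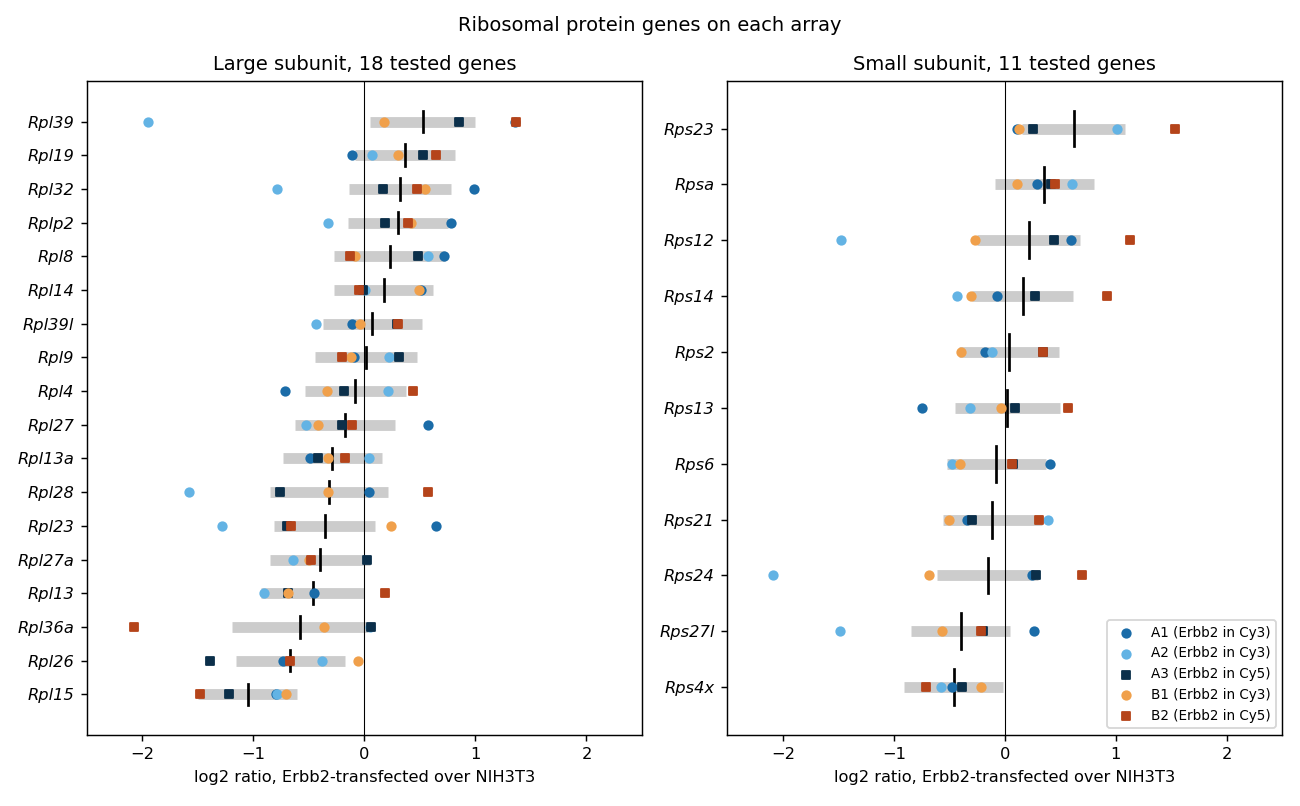
Log2 ratio of Erbb2-transfected over NIH3T3 for each of the 29 tested ribosomal protein genes, with a circle (Erbb2 in Cy3) or square (Erbb2 in Cy5) for each array, a black tick for the mean of the 2 preparations and a grey bar for its 95% interval, large and small subunit apart. Rpl15 stands lowest at -1.05 and Rps23 highest at 0.62, and for most genes the arrays scatter to both sides of 0.

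The proteins around the exit of the peptide tunnel had values in both directions. Rpl26, which lies at the tunnel exit and also binds the messenger RNA of p53, gave -0.73 (A1), -0.38 (A2), -1.39 (A3), -0.05 (B1) and -0.67 (B2). All 5 arrays were below 0, but B1 was close to it, and the difference of -0.67 ± 0.43 (SD, n = 2) did not pass (limma adjusted p = 0.104). Rpl39, a small protein of the tunnel wall, gave 1.35 (A1), -1.95 (A2), 0.85 (A3), 0.18 (B1) and 1.37 (B2). A2 alone was below 0, and the difference was 0.52 ± 0.35 (SD, n = 2; limma adjusted p = 0.178). Without A2 it was 0.94 with a limma adjusted p of 0.0116, and without A1 it was 0.11. Rpl19, which also lies near the exit, had preparation means of 0.25 and 0.47 for a difference of 0.36. Of the genes listed for this region 3 were tested and 0 called, beside 6.79% of all features called.

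Rpl8 and Rpl4 had means of opposite sign in the preparations. Rpl8, near the peptidyl transferase centre, had means of 0.57 (A) and -0.11 (B). Rpl4, whose loop reaches into the tunnel, had means of -0.22 and 0.05. Neither gene passed the test.

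The remaining large subunit genes stood on both sides of 0, and none passed. Rplp2, an acidic stalk protein that recruits elongation factors, had preparation means of 0.20 and 0.41. Rpl32 had means of 0.13 and 0.51, Rpl14 of 0.12 and 0.22, and Rpl39l, a paralogue of Rpl39 best known from testis, of 0.01 and 0.13. These 4 genes were above 0 in both preparations.
Lower values were given by Rpl13, with means of -0.68 and -0.25, by Rpl27a, with -0.31 and -0.49 and no value on A1, and by Rpl13a, also known for silencing inflammatory messenger RNAs, with -0.32 and -0.25. Rpl23, which faces the small subunit and can bind the p53 regulator Mdm2, had means of -0.51 and -0.21, and Rpl27 of -0.09 and -0.26. These 5 genes were below 0 in both preparations. Rpl9 had means of 0.19 and -0.16, Rpl28 of -0.76 and 0.12, and Rpl36a, near the site where transfer RNA leaves, of 0.06 and -1.22. For these 3 genes the preparations had opposite signs.

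In the small subunit 3 tested genes came from a list for the path of the messenger RNA, which need not be complete. They were Rps23, Rps14 and Rps2, and none passed. Rps23, which contacts the codon and anticodon and sets the accuracy of decoding, gave 0.10 (A1), 1.01 (A2), 0.26 (A3), 0.13 (B1) and 1.53 (B2). All 5 values were above 0, with A2 and B2 high and the other 3 between 0.10 and 0.26. The difference was 0.62 ± 0.30 (SD, n = 2; limma adjusted p = 0.113), the highest of the 29. Without A1 it was 0.73 with a limma adjusted p of 0.0348, without A2 0.51 with 0.208, and without B2 it was 0.27. Rps14 had preparation means of 0.01 and 0.31, and Rps2, at the entry of the messenger RNA channel, of 0.10 and -0.03, for a difference of 0.04 that changed sign in 4 settings. The other measured gene of that list, Rps15, was below 0 on its 3 arrays and was not tested. Of the 9 genes on that list 4 were measured, 3 tested and 0 called, beside 6.79% of all features called.

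Rpsa and Rps4x kept 1 sign on every array, and neither passed. Rpsa, which was also described as a laminin receptor, gave 0.29 (A1), 0.61 (A2), 0.42 (A3), 0.11 (B1) and 0.45 (B2). The difference was 0.36 ± 0.11 (SD, n = 2; limma adjusted p = 0.334). Rps4x, an X-linked small subunit gene, gave -0.48 (A1), -0.58 (A2), -0.39 (A3), -0.22 (B1) and -0.71 (B2). Its preparation means were both near -0.46, with a limma adjusted p of 0.204.

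The other small subunit genes had differences between -0.40 and 0.21, and none passed. Rps6, the substrate of S6 kinase, had preparation means of 0.02 and -0.17. Rps12 had means of 0.00 and 0.43, Rps13 of -0.22 and 0.26, and Rps21 of -0.14 and -0.10. Rps24, another gene mutated in Diamond-Blackfan anaemia, had means of -0.32 and 0.01. Rps27l, a paralogue of Rps27 that p53 can induce, had means of -0.40 and -0.39, with a limma adjusted p of 0.273.

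**Figure D2:**
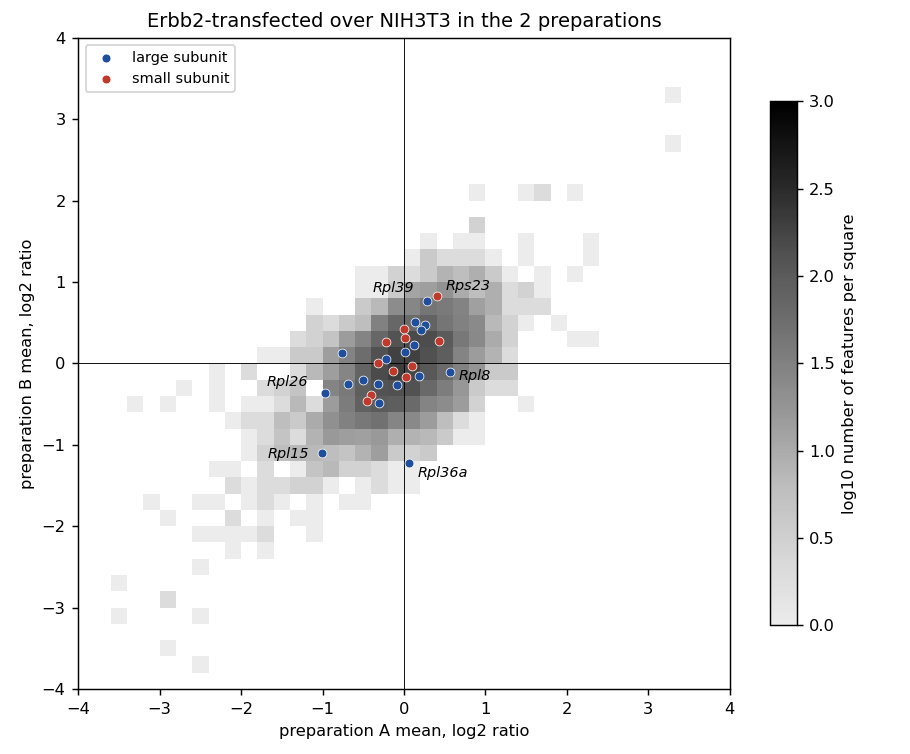
Preparation A mean (x axis) against preparation B mean (y axis) of the log2 ratio, with the 29 tested genes as coloured points over the density of all features tested in grey squares; 11 features lie outside the axes. Rpl15 sits at -1.0 in A and -1.10 in B, while Rpl36a is near 0 in A and at -1.22 in B.

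Of the 17 genes outside the test, 13 lacked A3, the array of preparation A with Erbb2-transfected cDNA in Cy5. Of the other 4, Rps15 and Rpl24 lacked both A1 and A2, Rpl23a lacked B1 and Rpl37 lacked B2. Values in both preparations were present for 14 of the 17. Rpl11, which with 5S RNA and Rpl5 restrains Mdm2, gave -0.65 (A1), -0.96 (A2), -0.34 (B1) and -1.23 (B2), all below 0. Rps20 gave -0.94 (A1), -1.40 (A2), -0.48 (B1) and -0.20 (B2), again all below 0. Rps15, of the decoding region, gave -0.81 (A3), -0.39 (B1) and -1.73 (B2). Rpl31, at the tunnel exit, gave -0.11 (A1), -0.97 (A2), -0.08 (B1) and -0.76 (B2). These 4 genes were below 0 on every array that measured them, with no test.

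The other 10 of these 14 genes had values of both signs. Rpl35, at the tunnel exit, gave 0.53 (A2), -0.51 (B1) and 0.57 (B2), and Rpl7a gave -0.17 (A1), 0.15 (A2), -0.46 (B1) and 0.17 (B2). Rps9 gave 0.16 (A1), -0.30 (A2), -0.22 (B1) and -0.34 (B2), and Rps4l, a copy related to Rps4x, gave -0.39 (A1), -0.39 (A2), 0.09 (B1) and 0.30 (B2). In these 4 genes no array went beyond 0.57 in either direction.
Wider spreads, with A1 above 0 and A2 below it, were seen in the next group. Rpl21 gave 0.78 (A1), -1.43 (A2) and -0.42 (B1), and Rpl34 gave 0.53 (A1), -1.49 (A2), -0.36 (B1) and 0.25 (B2). Rpl23a, at the tunnel exit, gave 0.54 (A1), -2.46 (A2), 0.25 (A3) and 0.44 (B2), and Rpl37 gave 1.35 (A1), -2.03 (A2), 0.86 (A3) and 0.12 (B1). In both of these genes A2 alone was below 0. Rps19, the gene most often mutated in Diamond-Blackfan anaemia, gave 0.94 (A1), -1.31 (A2), 0.23 (B1) and -0.42 (B2), and Rps25 gave 2.04 (A1), -0.68 (A2), 0.46 (B1) and -0.66 (B2). Another 3 large subunit genes had values in 1 preparation only: Rpl41 was above 0 on A1 and below 0 on A2, Rpl7 was below 0 on both arrays of B (-0.33 and -0.83), and Rpl24 had a single value of 2.08. The 17 untested genes ranged over single arrays from -2.46 to 2.08.

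The ribosomal protein genes differed widely between A1 and A2, arrays of the same preparation with the same dyes. Of the 40 genes with values on both, 16 (40%) differed by more than 1 on the log2 scale, beside 15.7% of all 4884 features with both values. In all 16 genes A1 was the higher array, beside 8.09% of features with A1 higher by more than 1. Signs were opposite in 24 genes (60%), beside 36.5% of features, and 18 genes (45%) were above 0 on A1 and below 0 on A2, beside 16.9% of features. This pattern was noticed in the values and is a description with no test. A1 holds 5368 values and A2 11348, and the part of this in the pattern was not tested.

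The order of the genes was also turned between A1 and A2. Pearson's r across the 40 genes was -0.359, beside 0.469 across all features on the same arrays; genes share the arrays and are not independent replicates. It was -0.486 over 24 large subunit genes and -0.156 over 16 small subunit genes. A1 gave r = 0.605 with A3 (29 genes) and 0.532 with B1 (38 genes), while A2 gave r = -0.0304 with A3 (31 genes) and 0.107 with B1 (41 genes). With B2 the contrast was weaker, at r = 0.206 for A1 (37 genes, and -0.201 over 16 small subunit genes) and 0.00121 for A2 (40 genes). Across all features, A2 had r = 0.363 with A3, 0.513 with B1 and 0.162 with B2. A1 had r = 0.528 with A3, 0.431 with B1 and 0.263 with B2 across all features. Under other scalings of the arrays chosen after seeing the data, 14 to 16 of the 40 genes differed by more than 1.

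The genes furthest apart between A1 and A2 came from both subunits. The gap was 3.38 for Rpl37, larger than that of 99.5% of features, 3.30 for Rpl39 and 3.11 for Rpl41, which encodes a very short basic protein. Next came Rpl23a at 3.00, Rps25 at 2.72, Rps24 at 2.33 and Rps19 at 2.26. The smallest gaps were those of Rps4l at 0.00, Rpl15 at -0.01 and Rps2 at -0.06. Rpl36al, a paralogue of Rpl36a that the naming rule leaves out, differed by 2.67, with 0.82 on A1 and -1.85 on A2. Among ribosome assembly factors 5 of 51 (9.8%) differed by more than 1, and among other messenger RNAs with the tract 1 of 10 did, the snoRNA host gene Gas5 at 1.92.

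**Figure D3:**
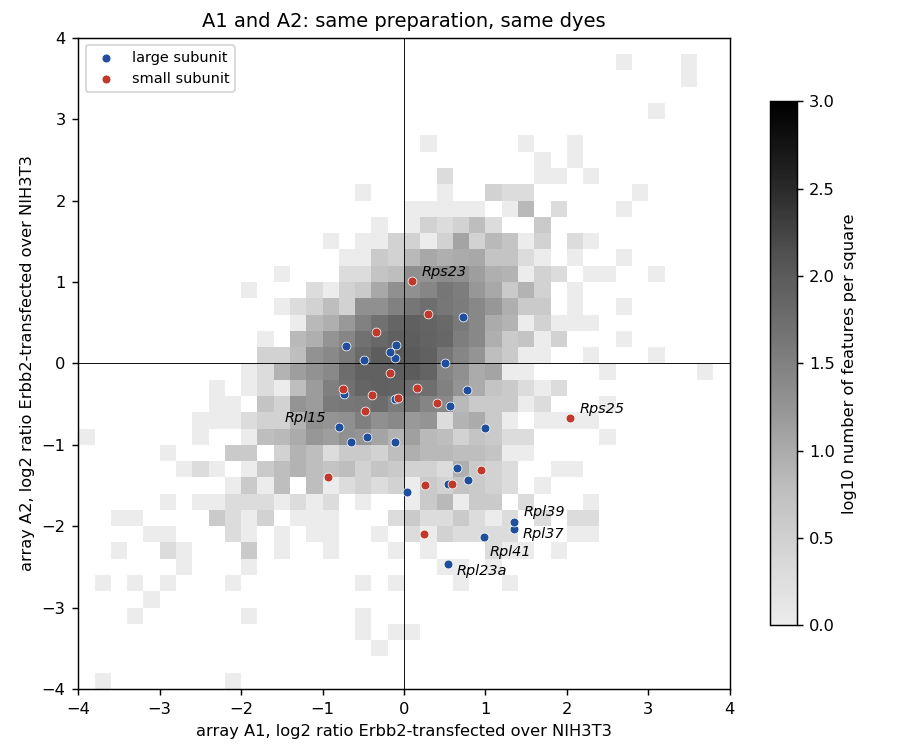
Log2 ratio on A1 (x axis) against A2 (y axis), with the 40 ribosomal protein genes measured on both as coloured points over the density of all features in grey squares; 18 features lie outside the axes. The coloured points run toward the lower right, where Rpl37, Rpl39, Rpl41 and Rpl23a stand, while the grey squares run along the rising diagonal.

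**Figure D4:**
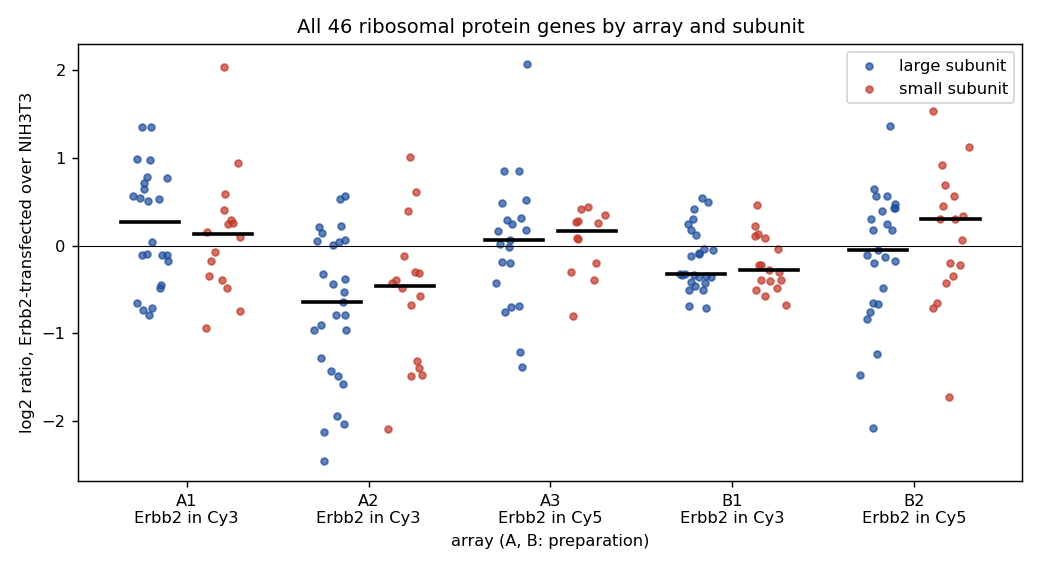
Log2 ratio of every measured ribosomal protein gene on each array, large and small subunit apart, with a point for each gene and a black line for the median. The medians of both subunits are below 0 on A2 and B1 (-0.64 and -0.46 on A2, -0.33 and -0.27 on B1) and above 0 on A1 (0.27 and 0.13).

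The array medians of the ribosomal protein genes were 0.13 (A1), -0.53 (A2), 0.09 (A3), -0.30 (B1) and 0.12 (B2), while the median over all probes as deposited lay between -0.00174 and 0.00712 on each. A2 and B1, both with Erbb2-transfected cDNA in Cy3, were the low arrays, and A1, with the same dyes, was not. The cause was not tested. Below 0 stood 31 of 43 genes on A2 and 31 of 43 on B1, against 18 of 40 on A1.

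Dye effects were positive in most small subunit genes, but none passed the test. A positive dye effect is a brighter Cy5 signal whichever line it labels. Of the 11 small subunit genes 10 were above 0 with a median of 0.24, against 9 of 18 and a median of 0.01 in the large subunit. Over all features 2228 of 4892 were above 0, with a median of -0.03. In the small subunit the count was 8 of 11 without B1, 9 of 11 without A2 or without B2, and 12 of 16 without A3. Called were 0 of 29, beside 0.143% of features either way, 0.0409% of them above 0 (limma, Benjamini-Hochberg). At an unadjusted p under 0.05 stood 3 of the 29, beside 12.9% of features, which were Rps24 with a dye effect of 0.67, Rps12 with 0.59 and Rps14 with 0.43, each with a limma adjusted p of at least 0.355. In preparation A the low values of Rps24 and Rps12 came from A2 alone. Rps24 gave 0.24 (A1), -2.09 (A2) and 0.28 (A3), and Rps12 gave 0.59 (A1), -1.48 (A2) and 0.45 (A3). A1 and A2 had the same dyes, and the cause of the low values was not tested. In preparation B both genes were below 0 on B1 (-0.68 and -0.27) and above 0 on B2 (0.70 and 1.13). The difference between subunits was not tested.

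Preparations A and B were compared in the same way. None of the 29 genes was called, beside 0.0204% of features, and 1 had an unadjusted limma p under 0.05, beside 6.75% of features. This was Rpl36a, which gave 0.05 (A2), 0.06 (A3), -0.36 (B1) and -2.08 (B2). B2 was far below the rest, and the difference of A over B was 1.28 with a limma adjusted p of 0.652.

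Of the 8 genes with several probes, 7 had probes within 0.88 of each other on every array they shared. The 2 probes of Rplp2 stayed within 0.13 on all 5 arrays, and those of Rpl13a within 0.65. The 2 probes of Rpl9 differed by up to 2.31, on B2, where they gave -1.35 and 0.96. Both probes of Rpl37 were above 0 on A1 (0.93 and 1.77) and below 0 on A2 (-1.80 and -2.26). Ribosomal protein genes have many near-identical processed copies and some close paralogues, so a cDNA probe can also bind their transcripts, and the values of single genes are uncertain to that extent. Rpl39 and its paralogue Rpl39l stood at 0.52 and 0.07.

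Genes that build or regulate the ribosome were listed for comparison, with earlier results of these data known. Of 132 ribosome assembly and ribosomal RNA synthesis factors 88 were measured and 46 tested. Of these 1 was called, beside 6.79% of all features called and 2.25% called higher. It was Nop56, a core protein of the box C/D snoRNPs that guide methylation of ribosomal RNA, which rose by 0.88 ± 0.21 (SD, n = 2; limma adjusted p = 0.0279). On the 5 arrays it was between 0.73 and 1.26. The median of the list was 0.09, with 30 genes above 0 and 16 below, beside 2346 and 2546 of all features. Npm1, a nucleolar chaperone, stood at 0.65 (limma adjusted p = 0.0855) and Utp3, a factor of small subunit assembly, at 0.64 (limma adjusted p = 0.0896).

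Other messenger RNAs with the tract were mixed. Of 22 listed 16 were measured and 11 tested, with a median of 0.11, and Eif3h, a subunit of an initiation factor, fell by 0.90 ± 0.06 (SD, n = 2; limma adjusted p = 0.023). It was the 1 gene called, beside 6.79% of all features called and 4.54% called lower. Its arrays lay between -1.19 and -0.58. Eef1d, a subunit of the elongation factor 1 complex, stood at -0.57 and did not pass. Among regulators of ribosomal protein synthesis 10 of 24 were measured and 7 tested, with a median of 0.41. Of the 7, 6 stood above 0, beside 2346 of 4892 features, and 1 below, which was Mdm2 at -0.40. Called was 1 of the 7, beside 6.79% of all features called and 2.25% called higher. Akt1, a kinase upstream of mTOR, rose by 0.78 ± 0.02 (SD, n = 2; limma adjusted p = 0.0449). The cap-binding protein gene Eif4e stood at 0.79 ± 0.49 (SD, n = 2; limma adjusted p = 0.064) and the kinase gene Mtor at 0.66 ± 0.13 (SD, n = 2; limma adjusted p = 0.0838).
The calls of Nop56, Eif3h and Akt1 were each lost without A3, without B1, without B2, under equal spread or quantile normalization, and with 1 value in each preparation, with limma adjusted p up to 0.133, 0.172 and 0.37. The differences stayed between 0.88 and 1.06 for Nop56, -0.98 and -0.77 for Eif3h, and 0.65 and 0.95 for Akt1 in the 14 settings read. Calls were gained too: Eif4e passed in 5 settings (limma adjusted p down to 0.000581), Npm1 in 3, and Mtor and Utp3 in 2 each, counting the looser threshold of 0.1. Of the genes mutated in Diamond-Blackfan anaemia 7 of 17 were measured and 4 tested, all of them ribosomal protein genes given above. Of these 4, Rpl15 fell, beside 6.79% of all features called and 4.54% called lower. The median was -0.42, but the 4 include Rpl15 and Rpl26 and are no separate result.

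**Figure D5:**
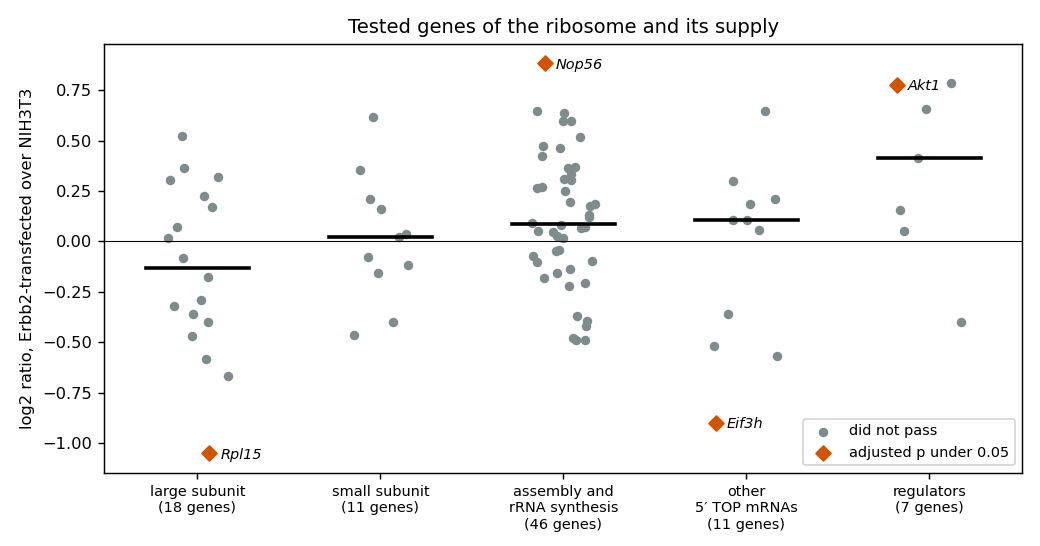
Log2 difference between Erbb2-transfected and NIH3T3 cells for the tested genes of each list, with a point for each gene, an orange diamond where the limma adjusted p was under 0.05 and a black line for the median of each list. The ribosomal protein genes lie around 0 (medians -0.13 and 0.02), the assembly factors at a median of 0.09 and the regulators at 0.41.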

How the data were processed

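The deposited values are log2 dye ratios of 5 spotted cDNA arrays. Per the labels, the authors scanned with a GenePix 4000A, read images with GenePix Pro 3.0, subtracted background from mean intensities and scaled each array to a median ratio of 1. No source used here gives the rule for empty values. Base 2 was read from the values: from 11.3% (B1) to 49.8% (A2) of the values of an array lay within 6e-07 of the commonest value plus log2(a/b), a and b being integers up to 300, against 1.96% to 2.48% for natural logarithms. The platform annotation gave 1 symbol for 11723 of 20205 probes, several for 806 and no entry for 7676.

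Values of A1, A2 and B1 were turned to Erbb2-transfected over NIH3T3. Probes of 1 symbol were averaged per array and the remaining probes were kept singly, giving 18151 features. Arrays of one dye orientation were averaged within a preparation, then the orientations. The 4892 features with both orientations in both preparations were tested against 0 with limma 3.58.1 (lmFit, then eBayes; R 4.3.3; 1 residual and 10.2 prior degrees of freedom), with Benjamini-Hochberg adjustment at 0.05 over all of them. Dye and preparation effects were tested with limma on the 5 arrays. The procedure was tested on simulated data.

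Members and lists were chosen with earlier results of these data known. Every tested member is named, with array values for called members and those with 1 sign on every array; array values of other genes were printed after their values were seen. From other lists, members past the threshold and up to 2 more with the largest difference are named. Alternatives covered the dye term, scaling, centring, probes, missing values, the prior, the threshold and leaving out each array. Promoters are from RefSeq. Python 3.11.15 with matplotlib 3.10.9 drew the figures.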

Additional observations from a re-analysis of the deposited data

Results flagged for a closer look

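Rpl8 and Rpl36a had opposite directions in the preparations. Rpl8 was above 0 on all 3 arrays of preparation A (0.72, 0.57 and 0.49) and below 0 on both of preparation B (-0.09 and -0.13), and the array means differed by 0.70. In the limma fit with the dye the difference was 0.69 with an adjusted p of 0.790. For Rpl36a the arrays of A and B differed by 1.28, and the limma adjusted p was 0.652. In Rps4l both arrays of A were at -0.39 and those of B above 0, so A was lower by 0.58 (-0.58); this difference was not tested, since the gene had no value on A3.

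In Rpl23a, A2 stood apart at -2.46 while the other 3 arrays lay between 0.25 and 0.54. Its gap was 0.902 of the whole range, above Dixon's critical value for 4 arrays. It was the 1 such gene among 40 checked, and chance gives about 5% of them.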

How the results depend on the processing

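The count of 332 features called between the lines became 112 with arrays scaled to equal median absolute deviation, 193 with quantile normalization, 544 with every probe its own feature, 564 with probes measured in both orientations of both preparations and 548 at an adjusted p under 0.1, and ran from 198 to 498 when single arrays were left out. Large subunit genes called went from 1 to 2 with 5 arrays and a dye term and with probes measured in both orientations (Rpl15 and Rpl26 in each), to 0 with equal deviation and with features needing 1 value in each preparation, and from 0 to 2 without single arrays. Small subunit genes called stayed at 0 except without A1, where Rps23 passed, a range of 0 to 1. The large subunit median was -0.0342 with only features on all 5 arrays and ran from -0.13 to -0.0047 without single arrays. The small subunit median of 0.02 was -0.0203 with 5 arrays and a dye term, 0.0030 with equal deviation, -0.0016 with quantile normalization, 0.0299 with centring, 0.0155 with every probe and with probes of both orientations, and -0.0894 with 1 value in each preparation, and ran from -0.15 to 0.19 without single arrays. Features with a dye effect numbered 1 to 27 and with a preparation difference 1 to 25 without single arrays, with 0 ribosomal protein genes among either. A fit with the replicate number as a block and no dye term, on arrays 1 and 2 of both preparations, called 1 of 2872 features for preparation. It called 0 of 27 ribosomal protein genes. Erbb2-transfected cDNA was in Cy3 on A1, A2 and B1 and in Cy5 on B2, so this fit does not separate preparation from dye. The labels do not say that numbers pair the arrays. The deviations of A1 with B1 and of A2 with B2 correlated at -0.000567 and -0.255. These values cannot tell whether numbers pair the arrays, since B1 and B2 deviate from their shared mean in opposite directions. The causes were not tested. Of the 29 genes 19 kept their sign in every setting read for them, which were 14 at most and 12 for Rpl27a and Rpl36a. Single genes were not read with every probe its own feature. The robust prior and the threshold of 0.1 leave the differences unchanged, so they cannot change a sign. The small number of arrays and the missing values limit what could be seen.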
